A study of Homo sapiens with 6 samples.

Results

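Autophagy core machinery and receptors were examined here as a set of 40 genes: the components that initiate and build the autophagosome, the ATG8-family proteins that coat it, and the receptors that deliver cargo to it. The members were found by gene symbol, and all 40 were among the 19330 genes of the deposited table of ribosome footprint counts. The measurements were ribosome profiles (Ribo-Seq) of K562, a human leukemia line with erythroid features, in which sequencing of the mRNA fragments shielded by ribosomes gives the ribosome occupancy of each coding sequence (CDS). Both groups had been infected with the lentiviral vector pLentiCRISPRv2, which carries Cas9 and a single guide RNA, had passed puromycin selection, and were harvested 10 days after infection. In 3 libraries (sgN6AMT1) the guide targeted N6AMT1, a methyltransferase that modifies the translation termination factor eRF1. In the other 3 (sgCtrl) it targeted an olfactory receptor gene, OR11A1 or OR2M4 (the labels spell the second OR2M49), and which of these each sgCtrl library carried was not stated. The paper describes alternative guides against N6AMT1 as well, and which of these each sgN6AMT1 library carried is not given here. The cells were transduced populations rather than clones, so editing need not have been complete in every cell. Nothing in the table separated transcript abundance from translation, since footprints report both and the RNA-Seq of the study was not analysed here; in bulk cultures a shift in the mix of cells cannot be told apart from a change within each cell.

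Autophagy encloses cytoplasm in a double membrane that fuses with the lysosome. The ULK1 kinase complex starts the process, a class III phosphatidylinositol 3-kinase (PI3K) complex marks the membrane with PI3P, ATG2 and ATG9 proteins supply lipid, and a ubiquitin-like conjugation machinery attaches ATG8 proteins (the LC3 and GABARAP families) to the growing membrane. Selective receptors such as SQSTM1 (p62) hold ubiquitinated cargo on one side and ATG8 proteins on the other, and are themselves degraded with the cargo, while BNIP3L (NIX) clears mitochondria, a step best known from the maturation of red cells.

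Libraries held between 1821356 and 2969736 footprints. The chi-square per degree of freedom, which is 1 for counting error alone, was 1.25 to 1.68 between replicate libraries and 4.89 to 7.04 across the groups, and no pair agreed within sampling noise. The targeted gene N6AMT1 had 25, 24 and 34 footprints in sgCtrl against 10, 9 and 8 in sgN6AMT1, for a log2 fold change of -1.51 (edgeR adjusted p = 6.69e-05, SE 0.31). The erythroid markers of K562 were abundant: 12 erythroid genes summed to 27457 to 28945 CPM (footprints scaled to library size) in sgCtrl and 27939 to 28905 in sgN6AMT1. Single markers in that globin-dominated sum were separated between the groups, with ALAS2 at 43.9 to 53.1 against 148 to 168 CPM, HBE1 at 3392 to 3830 against 4922 to 5028, TFRC at 1902 to 2023 against 1501 to 1605, GATA1 at 300 to 323 against 239 to 270 and KLF1 at 115 to 128 against 86.8 to 112. Markers of other cell types were low or absent for megakaryocytes (14.3 to 20.1 against 7.01 to 9.5 CPM, with 4 of 8 genes at 0 in all libraries), B cells (at most 1.51 CPM) and T cells (30.6 to 39.0 against 27.6 to 32.0 CPM, nearly all from CD3D). LYZ carried nearly all of a monocyte sum of 50.7 to 60.7 against 99.9 to 110 CPM, with CD14 at 0, and KRT8 and KRT18 most of an epithelial and fibroblast sum of 1998 to 2059 against 2522 to 2577 CPM. The part of these marker shifts in the results was not tested.

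Of the 40 genes, 38 had enough footprints to be tested, and 10 of them had higher ribosome occupancy in N6AMT1-depleted cells while 0 had lower occupancy (edgeR, adjusted p under 0.05 over 9202 genes). At an unadjusted p under 0.05 these numbers were 16 and 0 (42.1% of the 38 in all, against 36.8% of all genes tested, of which 18.3% were higher and 18.5% lower). The 10 were the receptors SQSTM1, TAX1BP1, NBR1 and OPTN, the ATG8-family genes GABARAP, GABARAPL1 and GABARAPL2, the mitophagy receptor BNIP3L, and AMBRA1 and PIK3C3 of the class III PI3K complex. The rises were modest, with log2 fold changes from 0.26 (TAX1BP1) to 1.16 (GABARAPL1). These 10 of 38 (26.3%) compare with a background in which 26.9% of all genes tested changed, 12.9% upwards (1191 genes) and 13.9% downwards (1282 genes). That balance depended on scaling: with total counts only, 1560 genes were higher and 976 lower, and with trends on CDS length and GC content removed 1085 and 1603, while 14 and 11 of the 38 were higher and 0 lower. A fit by DESeq2 called 588 of the 10716 genes to which it gave an adjusted p higher (5.49%). Of the 40 members, counted whether or not they had an adjusted p, 5 were higher and 0 were lower. The 5 were SQSTM1, GABARAP, GABARAPL1, AMBRA1 and BNIP3L.

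Fold changes were positive for 28 of the 38 and negative for 10 (73.7% positive against 51.0% of all genes tested), and the median log2 fold change was 0.19 against 0.01. In 16 of the 38 every sgN6AMT1 library lay above every sgCtrl library, and in 0 did every one lie below. Over all genes tested, 18.4% were separated upwards and 19.2% downwards. Summed over the 40 genes, occupancy was 1654, 1678 and 1705 CPM in sgCtrl and 2053, 1955 and 1986 CPM in sgN6AMT1. Of the members tested, 3 met the count minimum only through their sgN6AMT1 libraries (OPTN, GABARAPL1 and ATG14) and 1 only through its sgCtrl libraries (ATG10), so the counts above include genes that the minimum itself favours in one direction. Without a minimum, OPTN and GABARAPL1 were still called (adjusted p = 0.0169 and 5.51e-05, edgeR).

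**Figure D1:**
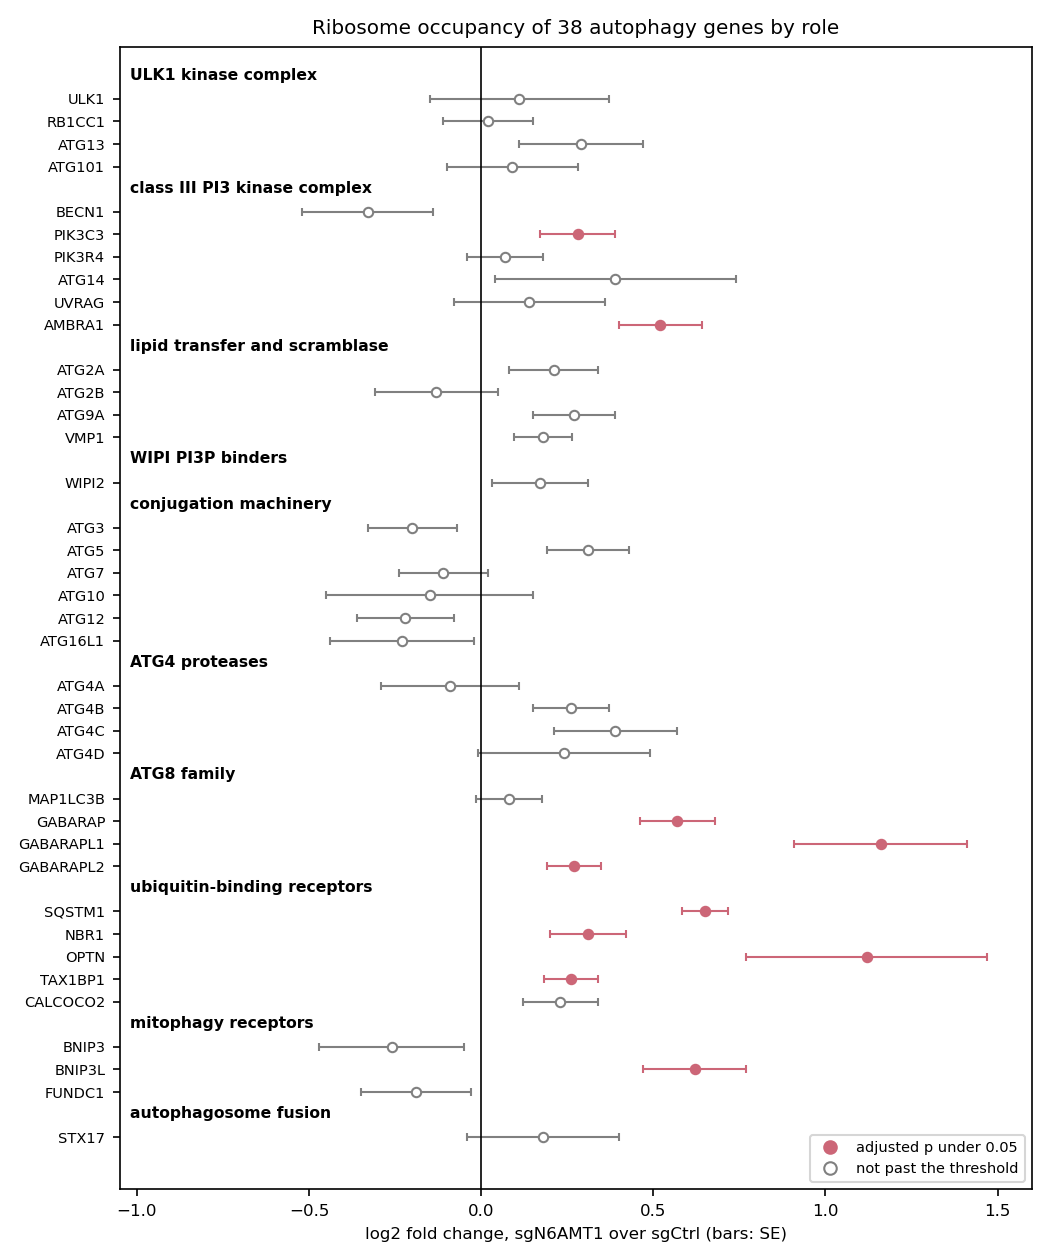
Log2 fold change of ribosome occupancy (sgN6AMT1 over sgCtrl, n = 3 libraries each) for the 38 autophagy genes tested, grouped by role, with bars of 1 SE; filled points passed the edgeR threshold. The 10 filled points all lie right of 0 and sit mainly among ATG8-family genes and ubiquitin-binding receptors, while 5 of 6 conjugation genes lie left of 0.

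Calls by role are given beside the 12.9% of all genes tested that were higher (edgeR). Each role held few genes, so a count of 0 is not a departure from that share. Of the ubiquitin-binding receptors 4 of 5 rose and of the tested ATG8 genes 3 of 4, whereas 0 of 4 genes of the ULK1 complex, 0 of 6 of the conjugation machinery, 0 of 4 ATG4 proteases and 0 of 4 lipid-transfer and scramblase genes passed the threshold. The class III PI3K complex had 2 of 6 and the mitophagy receptors 1 of 3. WIPI2 and STX17 were the lone tested genes of their roles and did not pass. OPTN and GABARAPL1, counted here, met the count minimum only through their sgN6AMT1 libraries, and the minimum favours such genes upwards. Both were still called without it (edgeR). Whether roles differ from each other was not tested.

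SQSTM1, the ubiquitin-binding receptor p62 (chr5:179820905-179838078, plus strand, GRCh38), gave the firmest rise of the set. It had 342, 477 and 346 footprints in sgCtrl and 622, 603 and 482 in sgN6AMT1. Scaled to library size these were 172, 164 and 171 CPM against 273, 261 and 262 CPM, with no overlap and little spread in either group. The mean went from 169 ± 3.93 to 265 ± 6.69 CPM (SD, n = 3), a log2 fold change of 0.65 (edgeR adjusted p = 8.54e-14, SE 0.067). Across the genes tested, 93 had a smaller p-value, although 459 of the 1191 genes that rose did so by a larger fold. SQSTM1 was past the threshold in each of 15 alternative fits, with adjusted p from 2.48e-18 to 1.39e-09 and log2 fold changes of 0.58 to 0.71.

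The other receptors moved less or from a lower level. TAX1BP1 (chr7:27740142-27828881, plus strand), a receptor that shares ubiquitin and ATG8 binding with SQSTM1, had 130, 133 and 126 CPM in sgCtrl and 159, 156 and 151 CPM in sgN6AMT1. Its log2 fold change was 0.26 (edgeR adjusted p = 0.00702, SE 0.079). NBR1 (chr17:43171214-43211688, plus strand), the relative of SQSTM1 that co-assembles with it on ubiquitin condensates, had 64.8, 68.3 and 62.1 CPM against 87.2, 80.8 and 74.4 CPM, and rose by 0.31 (edgeR adjusted p = 0.0215, SE 0.11). Both groups were separated for each gene, and for NBR1 the gap between the nearest libraries was narrower than the spread within sgN6AMT1.

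OPTN (chr10:13100163-13138308, plus strand), a receptor of ubiquitinated mitochondria and bacteria, was barely expressed. Its footprints numbered 9, 10 and 5 in sgCtrl and 17, 16 and 16 in sgN6AMT1, or 3.48 ± 1.03 and 7.68 ± 0.909 CPM (SD, n = 3). The log2 fold change of 1.12 was large but imprecise (edgeR adjusted p = 0.0111, SE 0.35). CALCOCO2 (NDP52), which binds ubiquitin and galectin-8 on damaged vesicles, had 57.3, 57.2 and 54.7 CPM against 67.1, 63.9 and 67.3 CPM. Its groups did not overlap, yet the log2 fold change of 0.23 (SE 0.11) missed the threshold with an edgeR adjusted p of 0.133. Summed, the 5 receptors carried 428, 426 and 416 CPM in sgCtrl and 593, 569 and 563 CPM in sgN6AMT1, and SQSTM1 accounted for most of the added footprints.

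**Figure D2:**
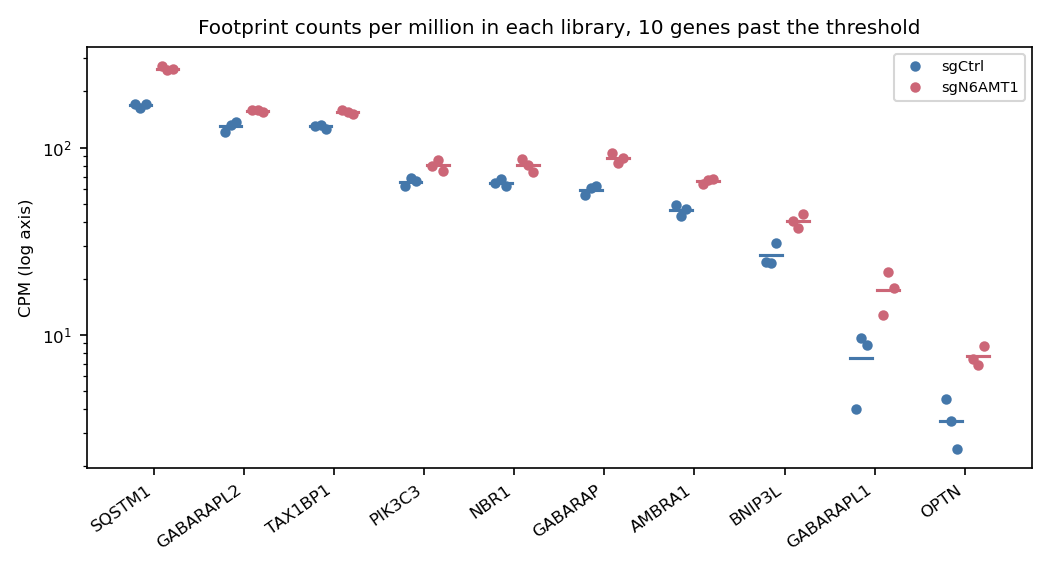
CPM, counts scaled to library size (log axis), in each of the 3 sgCtrl and 3 sgN6AMT1 libraries for the 10 autophagy genes past the threshold, ordered by level; short lines are group means. No gene has an sgN6AMT1 library at or below an sgCtrl library, from SQSTM1 at 164 to 273 CPM down to OPTN at 2.46 to 8.69 CPM.

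Calls on TAX1BP1, NBR1 and OPTN were less firm than that on SQSTM1. DESeq2 did not call any of these (adjusted p = 0.0838, 0.168 and 0.149). NBR1 also missed the threshold without sgCtrl replicate 3 (adjusted p = 0.0726), without sgN6AMT1 replicate 1 (0.118) and without sgN6AMT1 replicate 2 (0.0581), and OPTN without sgCtrl replicate 3 (0.0593). Their direction was the same in every fit run.

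The ATG8 family, small ubiquitin-like proteins that are lipidated on the autophagosome and bind receptors there, had 3 of its 4 tested genes past the threshold. GABARAP (chr17:7240008-7242449, minus strand), which acts late in autophagosome closure and fusion, had 111, 176 and 126 footprints in sgCtrl and 215, 191 and 163 in sgN6AMT1. In CPM these were 55.8, 60.7 and 62.1 against 94.2, 82.5 and 88.5, a clear separation. The log2 fold change was 0.57 (edgeR adjusted p = 1.32e-05, SE 0.11).

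GABARAPL1 (chr12:10212883-10220778, plus strand), its closest relative in the set at 75.7% identity over the aligned coding bases, had 8, 28 and 18 footprints against 29, 50 and 33. These corresponded to 4.02, 9.65 and 8.87 CPM and to 12.7, 21.6 and 17.9 CPM. The log2 rise of 1.16 (edgeR adjusted p = 1.52e-04, SE 0.25) was the largest of the set, from one of its lowest levels. Libraries varied widely within each group, but their ranges did not meet.

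GABARAPL2 (GATE-16, chr16:75566379-75577881, plus strand) had 121, 133 and 138 CPM in sgCtrl and 160, 159 and 155 CPM in sgN6AMT1. Its rise was small, at 0.27 (edgeR adjusted p = 0.00559, SE 0.079), and was lost in DESeq2 (adjusted p = 0.0757) and without sgCtrl replicate 1 (0.0539). GABARAP and GABARAPL1 were called in every alternative that tested them, with adjusted p of at most 0.0013 and 0.0158.

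MAP1LC3B, the LC3 protein most used as an autophagosome marker, had 91.9, 100 and 89.7 CPM in sgCtrl and 112, 92.0 and 93.4 CPM in sgN6AMT1. The groups overlapped, and the log2 fold change of 0.08 (SE 0.096) had an edgeR adjusted p of 0.61. MAP1LC3A was all but silent, with 0 footprints in the sgCtrl libraries and 0, 0 and 2 in sgN6AMT1, and was not tested.

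MAP1LC3B has a near-identical copy, MAP1LC3B2, whose CDS of the same 378 bases differs at 2 positions, so 295 of 351 words (84%) of 28 bases, about the length of a footprint, are shared by the pair. Mapping could therefore assign most footprints of either gene to the other. The stretches around those positions are shown because they are the parts of the CDS where a footprint can tell the genes apart, with the differing base in capitals (GENCODE 44 transcripts, GRCh38, 5′ to 3′; MAP1LC3B on chromosome 16, MAP1LC3B2 on chromosome 12).
MAP1LC3B, CDS bases 15 to 45: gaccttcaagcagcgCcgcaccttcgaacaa
MAP1LC3B2, CDS bases 15 to 45: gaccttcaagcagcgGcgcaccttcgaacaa
MAP1LC3B, CDS bases 323 to 353: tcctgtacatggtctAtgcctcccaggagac
MAP1LC3B2, CDS bases 323 to 353: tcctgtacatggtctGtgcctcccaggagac

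MAP1LC3B2 was listed with 74.7 ± 4.11 CPM in sgCtrl and 88.2 ± 5.28 CPM in sgN6AMT1 (log2 fold change 0.25, SE 0.1, edgeR adjusted p = 0.0645). With the counts of both copies summed, a choice made after seeing the data, the log2 fold change was 0.15 (edgeR adjusted p = 0.107). No other member with a matched CDS shared a word of that length with another listed transcript, apart from 6 words (0.209%) of NBR1. Footprints of GABARAP over those of both LC3B copies stood at 0.326, 0.353 and 0.382 in sgCtrl and at 0.48, 0.443 and 0.492 in sgN6AMT1, a log2 difference of 0.42 (SE 0.081). This was 1 of 4 ratios computed, each between genes chosen after their fold changes were seen, so it restates those values and is not independent of them. The 2-sided exact permutation p of 0.1 (0.1 after Benjamini-Hochberg adjustment over the 4) is the smallest that 3 libraries against 3 allow.

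Levels of different genes can be set side by side only after division by CDS length. For GABARAPL1 that length was the 441 bases of its listed transcript, against 354 for GABARAP and GABARAPL2, and a longer CDS gives a lower value. On that scale the order within the ATG8 family in sgCtrl was GABARAPL2 at 369 ± 25, MAP1LC3B at 248 ± 14.3, GABARAP at 168 ± 9.42 and GABARAPL1 at 17 ± 6.92 CPM per kb (SD, n = 3), each apart from the next by more than the SDs. The place of MAP1LC3B rests on how footprints were split between its copies: summed, both had 446 ± 13.5 CPM per kb in sgCtrl and 496 ± 22.2 in sgN6AMT1, above GABARAPL2 in each group. In sgN6AMT1 the order of the single genes was kept, at 446 ± 7.7, 262 ± 29.9, 250 ± 16.6 and 39.5 ± 10.1 CPM per kb, but MAP1LC3B as listed and GABARAP lay within their spread of each other. The receptors ran from SQSTM1 (128 ± 2.97 CPM per kb in sgCtrl, 200 ± 5.06 in sgN6AMT1) through TAX1BP1 (53.0 ± 1.34 and 63.7 ± 1.59), CALCOCO2 (39.9 ± 1.03 and 46.8 ± 1.33) and NBR1 (22.4 ± 1.06 and 27.9 ± 2.22) to OPTN (2.01 ± 0.593 and 4.43 ± 0.524), in the same order in both groups.

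**Figure D3:**
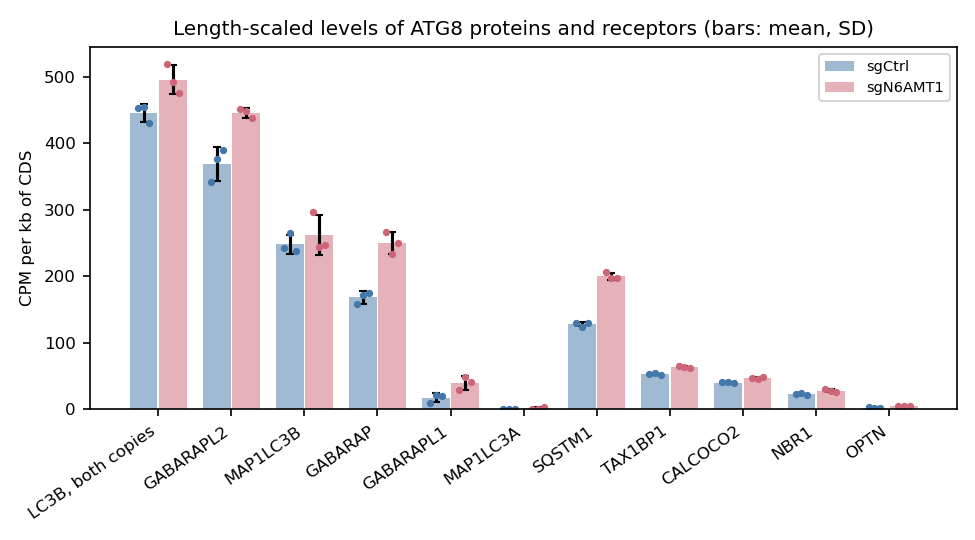
Ribosome occupancy in CPM per kilobase of CDS for ATG8-family genes and ubiquitin-binding receptors, as bars of the mean with SD and points for the 3 libraries of each group. The first pair of bars sums MAP1LC3B and its copy MAP1LC3B2 (446 and 496 CPM per kb), above GABARAPL2 (369 and 446), and SQSTM1 is the highest of the receptors (128 and 200).

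The mitophagy receptors BNIP3L, BNIP3 and FUNDC1 sit in the outer mitochondrial membrane and bind ATG8 proteins without ubiquitin. BNIP3L (NIX, on chromosome 8) had 49, 70 and 63 footprints in sgCtrl and 93, 86 and 81 in sgN6AMT1, or 24.6, 24.1 and 31.1 CPM against 40.8, 37.2 and 44 CPM. Its occupancy rose by 0.62 in log2 terms (edgeR adjusted p = 4.99e-04, SE 0.15) and was called in all 15 alternative fits. The erythroid markers ALAS2 and HBE1 were also higher in these libraries and GATA1, KLF1 and TFRC lower, and the part of that shift in the rise of BNIP3L was not tested. The paralog BNIP3 had 17.6, 16.5 and 21.7 CPM against 15.8, 12.1 and 19.0 CPM, with overlapping groups (log2 fold change -0.26, SE 0.21, edgeR adjusted p = 0.388). FUNDC1 was likewise not past the threshold (-0.19, SE 0.16, adjusted p = 0.428).

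Within libraries, the ratio of BNIP3L to BNIP3 footprints was 1.40, 1.46 and 1.43 in sgCtrl and 2.58, 3.07 and 2.31 in sgN6AMT1. The log2 difference of this ratio was 0.88 (SE 0.12), with the exact permutation p at its minimum of 0.1. This pair too was chosen after its fold changes were seen, so the ratio restates them.

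In the class III PI3K complex, AMBRA1 and PIK3C3 passed the threshold and the other 4 genes did not. AMBRA1 (chr11:46396415-46591423, minus strand), a Beclin 1 partner and scaffold for ubiquitin ligases, had 98, 126 and 95 footprints in sgCtrl and 146, 155 and 126 in sgN6AMT1. The CPM values were 49.2, 43.4 and 46.8 against 64.0, 67.0 and 68.4, so the groups lay well apart. Its log2 fold change was 0.52 (edgeR adjusted p = 2.38e-04, SE 0.12), and it was called in all 15 alternatives.

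PIK3C3 (VPS34, chr18:41955234-42087830, plus strand), the catalytic subunit, had 62.8, 69.3 and 66.1 CPM against 79.8, 86.4 and 75.5 CPM. The rise of 0.28 (edgeR adjusted p = 0.0371, SE 0.11) was the weakest call of the set and was lost in 6 of 15 alternatives. These were DESeq2 (adjusted p = 0.225), no filter on low counts (0.0592) and the fits without sgCtrl replicate 1 (0.113), sgCtrl replicate 3 (0.0719), sgN6AMT1 replicate 1 (0.0569) or sgN6AMT1 replicate 2 (0.186).

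Other subunits were not past the threshold. BECN1 (Beclin 1) had the lowest fold change of all 38, with 25.1, 19.3 and 23.7 CPM in sgCtrl and 18, 15.1 and 20.6 CPM in sgN6AMT1 (log2 fold change -0.33, SE 0.19, edgeR adjusted p = 0.194). The regulatory subunit PIK3R4 (VPS15) was close to 0 at 0.07 (SE 0.11, adjusted p = 0.704). ATG14 and UVRAG, which define alternative forms of the complex, gave 0.39 (SE 0.35, adjusted p = 0.451) and 0.14 (SE 0.22, adjusted p = 0.694). The ratio of AMBRA1 to BECN1 footprints was 1.96, 2.25 and 1.98 in sgCtrl and 3.56, 4.43 and 3.32 in sgN6AMT1. Its log2 difference was 0.86 (SE 0.14, exact permutation p = 0.1). The last of the 4 ratios, SQSTM1 over NBR1, was 2.65, 2.41 and 2.75 against 3.13, 3.22 and 3.52, a log2 difference of 0.34 (SE 0.076, exact permutation p = 0.1). For all 4 pairs the libraries of the groups were separate, which restates the fold changes for which the pairs were chosen.

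Among the 28 tested members that did not pass, log2 fold changes ran from -0.33 (BECN1) to 0.39 (ATG14), with 18 positive and 10 negative. Their footprints were fewer, with a median of 54.8 per library against 163 for the 10 that passed, and their SEs correspondingly wider (median 0.17 against 0.11), so a rise of the size seen for TAX1BP1 would often not be detectable at this depth. In 6 of the 28 the sgN6AMT1 libraries all lay above the sgCtrl libraries, a share near the 18.4% of all genes tested that were separated upwards.

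Of the 6 genes of the conjugation machinery, which attaches ATG8 proteins to lipid, 5 had negative fold changes, among them the E1-like ATG7 (-0.11), the E2-like ATG3 (-0.20) and ATG10 (-0.15), the ubiquitin-like ATG12 (-0.22) and the scaffold ATG16L1 (-0.23), but none passed (edgeR adjusted p from 0.251 to 0.76 for these 5). ATG5, the partner of ATG12, was the exception, with 39.7, 39.6 and 42.4 CPM in sgCtrl and 54.4, 50.5 and 44.5 CPM in sgN6AMT1. Its log2 fold change of 0.31 (SE 0.12) had an edgeR adjusted p of 0.0555, the nearest to the threshold from outside, and fell under it in 5 alternatives, down to 0.0209 with total counts as the scaling. As a whole the 6 genes carried 196, 190 and 193 CPM in sgCtrl and 199, 182 and 169 CPM in sgN6AMT1, which overlap.

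Of the ATG4 proteases, which trim ATG8 proteins before lipidation and release them after, ATG4B and ATG4C were separated upwards. ATG4B had 63.8, 54.8 and 73.0 CPM against 73.2, 74.3 and 79.3 CPM (log2 fold change 0.26, SE 0.11, edgeR adjusted p = 0.0764), and ATG4C had 20.1, 15.2 and 21.2 CPM against 25.9, 22.0 and 25.0 CPM (0.39, SE 0.18, adjusted p = 0.102). The nearest libraries of the groups differed by under 1 CPM in each case. ATG4A (-0.09) and ATG4D (0.24) overlapped. ATG4B passed with total counts (adjusted p = 0.0275), with a mean of at least 50 counts (0.0488) and without sgCtrl replicate 3 (0.0214).

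VMP1, an endoplasmic reticulum scramblase, had 110, 120 and 121 CPM in sgCtrl and 140, 132 and 125 CPM in sgN6AMT1 (log2 fold change 0.18, SE 0.084, edgeR adjusted p = 0.114). ATG9A, the scramblase of the seed vesicles, had 43.2, 49.0 and 44.9 against 47.8, 54.9 and 65.1 CPM (0.27, SE 0.12, adjusted p = 0.0956). Both passed with total counts as the scaling (adjusted p = 0.0311 and 0.0386), and ATG9A also without sgN6AMT1 replicate 1 (0.0276). The lipid-transfer proteins ATG2A (0.21) and ATG2B (-0.13) had opposite signs, neither past the threshold.

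In the ULK1 complex, ATG13 had 18.1, 20.7 and 21.7 CPM against 22.4, 29.4 and 21.7 CPM. Its groups met to within rounding, and the log2 fold change of 0.29 (SE 0.18) had an edgeR adjusted p of 0.243. ULK1 itself (0.11), RB1CC1 (FIP200, 0.02) and ATG101 (0.09) gave adjusted p of at least 0.787. The complex carried 86.9, 90.7 and 96.6 CPM in sgCtrl and 96.9, 95.9 and 103 CPM in sgN6AMT1. WIPI2, a PI3P reader that recruits ATG16L1, gave 0.17 (adjusted p = 0.392) and the fusion SNARE STX17 gave 0.18 (adjusted p = 0.596). WIPI1 was not tested, with 0, 7 and 4 footprints in sgCtrl and 2, 3 and 4 in sgN6AMT1.

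**Figure D4:**
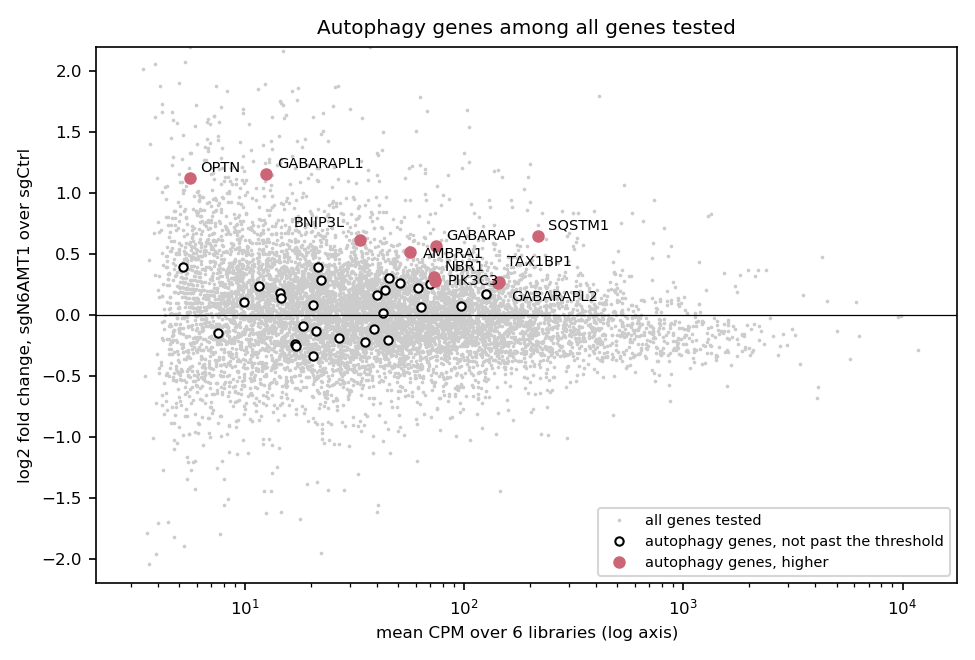
Log2 fold change (sgN6AMT1 over sgCtrl) against mean CPM over the 6 libraries (log axis) for the 9202 genes tested, with autophagy genes past the threshold filled and the others open; 33 genes lie beyond the vertical limits. SQSTM1 stands at the high end of the set in level with a log2 fold change of 0.65, OPTN and GABARAPL1 at the low end with 1.12 and 1.16, and the 28 open points lie between -0.33 and 0.39.

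The sizes of these rises were ordinary for the data. Among the 1191 genes that rose, GABARAPL1 and OPTN were exceeded in fold change by 157 and 168 genes (13.2% and 14.1%), BNIP3L, GABARAP and AMBRA1 by 492, 555 and 618, and TAX1BP1, GABARAPL2, PIK3C3 and NBR1 by 991 to 1069. Of the 10 genes that passed, 5 kept their call in every alternative fit that tested them (SQSTM1, GABARAP, GABARAPL1, AMBRA1 and BNIP3L), and the fold changes of all 10 stayed positive throughout. No member was called lower in any of the 15 alternatives.

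**Figure D5:**
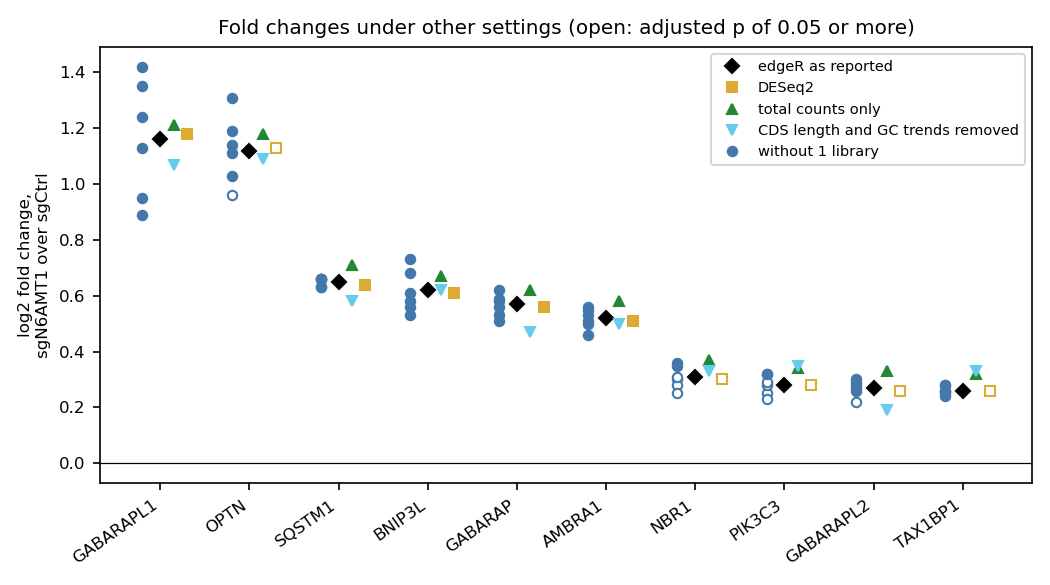
Log2 fold change of the 10 autophagy genes past the threshold as reported (edgeR) and under DESeq2, total counts as the scaling, removal of CDS length and GC trends, and each fit without 1 library; open symbols mark an adjusted p of 0.05 or more. All points lie above 0, and the open symbols are confined to NBR1, PIK3C3, GABARAPL2, TAX1BP1 and OPTN.

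A wider list of 58 autophagy genes outside the set (regulators, further receptors, fusion factors and upstream kinases) gave 47 tested genes, of which 9 were higher and 5 lower (19.1% and 10.6%, against 12.9% and 13.9% of all genes tested), with a median log2 fold change of 0.17. Of 15 tested fusion and transport genes 5 rose and 1 fell, and of 16 further selective receptors 1 rose and 3 fell; differences between these groups, or from the set, were not tested.

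Among the genes of the list past the threshold, the largest rises were those of STK11, YKT6 and VPS18. STK11 (LKB1), the kinase that activates AMPK, had 9, 19 and 10 footprints in sgCtrl and 30, 24 and 15 in sgN6AMT1. In CPM these were 4.52, 6.55 and 4.93 against 13.1, 10.4 and 8.14 (log2 fold change 0.96, SE 0.29, edgeR adjusted p = 0.00902). Its sgCtrl replicate 1 lay under the count minimum (4.62 CPM). Like GABARAPL1, STK11 thus met that minimum only through its sgN6AMT1 libraries. The autophagosomal SNARE YKT6 had 18.1, 17.2 and 14.8 CPM against 28.1, 24.2 and 20.6 CPM (0.55, SE 0.19, adjusted p = 0.0194), and VPS18, a core subunit of the HOPS tethering complex, 35.7, 24.5 and 30.6 CPM against 42.5, 43.2 and 40.2 CPM (0.51, SE 0.14, adjusted p = 0.00346). Each of the 3 genes was separated between the groups.

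VPS11, another core subunit of HOPS, went the opposite way from VPS18. It had 69.3, 73.8 and 68.5 CPM in sgCtrl and 55.7, 44.9 and 59.2 CPM in sgN6AMT1 (log2 fold change -0.42, SE 0.12, edgeR adjusted p = 0.00311). PHB2 (prohibitin 2), an inner-membrane mitophagy receptor, fell from 348, 336 and 325 CPM to 254, 254 and 242 CPM (-0.43, SE 0.062, adjusted p = 1.87e-08), and BCL2L13, an outer-membrane one, from 60.3, 60.3 and 58.7 CPM to 41.2, 48.4 and 46.1 CPM (-0.40, SE 0.12, adjusted p = 0.0062). Receptors of mitophagy thus were found in both directions, with BNIP3L higher and PHB2 and BCL2L13 lower.

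Since N6AMT1 modifies eRF1, which reads stop codons, the ends of the coding sequences are shown for the genes that rose and for MAP1LC3B and BECN1, which did not pass. Averaged over transcripts, the paper found ribosome occupancy at stop codons unchanged in N6AMT1-depleted cells. Each line gives the last coding bases, the stop codon in capitals and the bases after it, 5′ to 3′ on the transcript strand (GENCODE 44, GRCh38). The GABARAPL1 line is the end of its listed transcript. That CDS of 441 bases is longer than the 354 of GABARAP and GABARAPL2, and other transcripts of the gene may end differently.
SQSTM1: catcccccgccgttgTGAccacttttg
TAX1BP1: gttctaaattttgacTAGttacttttt
NBR1: tacagccaacgctatTGAggagtgacc
OPTN: atggattgcatcattTAAgtgttgatg
GABARAP: agtgtctacggtctgTGAagctgctgc
GABARAPL1: ggcagtgtaaggctcTGAgagattaga
GABARAPL2: aacacttttggcttcTGAgggccattg
AMBRA1: gaaccacggaacaggTAGagacaaacg
PIK3C3: cagtactggagaaaaTGAaactgggat
MAP1LC3B: atgaaattgtcagtgTAAaaccagaaa
BECN1: caattttataacaaaTGActtttttcc

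Of the 9 genes that rose and had a matched CDS, 6 ended in TGA (66.7%), 2 in TAG and 1 in TAA. TGA ended 19 of 36 members tested (52.8%) and 49.1% of 8589 genes tested with a CDS. An ATG upstream of the start codon, a feature of many mRNAs with regulated initiation, was present in the leaders of 4 of the 9 (AMBRA1, OPTN, TAX1BP1 and PIK3C3), in 22 of the 36 (61.1%) and in 39.4% of all. These shares are descriptions over few genes and were not tested.

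Promoters of the set were searched on both strands for a pair of motifs, over the RefSeq windows (GRCh38.p14) from 250 bases before to 50 after the start, which covered 34 of the members and 9 of those that rose. CACGTG, the core of the E-box that TFEB and related factors bind, occurred in 0 of the 9, in 3 of the 34 (ATG14, ATG3 and BNIP3), in 13.5% of 7176 genes tested and in 7.26% of 35116 windows. TGACNNNGC, the core of the antioxidant response element bound by NRF2, also occurred in 0 of the 9 and in 3 of the 34 (ATG101, MAP1LC3B and CALCOCO2), against 19.6% of genes tested and 13.3% of all windows. The 9 windows are few, so a count of 0 is not a departure from the shares over all genes. These shares were not tested. Neither motif contains the other, and their absence here concerns these windows alone.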

How the data were processed

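K562 cells, a human cell line, were profiled in 3 sgCtrl and 3 sgN6AMT1 libraries. The authors deposited whole-number footprint counts per canonical transcript, neither normalized nor pooled. They trimmed adapters with cutadapt, mapped reads to GRCh38 with HISAT2, removed rRNA and tRNA reads, mapped the rest to canonical transcripts with bowtie2 and assigned P-sites with riboWaltz. They counted both P-sites over each CDS and overlaps with a gene annotation, and which of these the table holds was not stated. No molecular identifiers were described, so counting error is a lower limit. Samples were grouped by title. p-values measure the spread between these libraries, which the study describes as separate transductions.

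The main test used R 4.3.3 and edgeR 4.0.16: filterByExpr (minimum of 10 counts, removing 10128 genes with 0.465% of the counts), TMM factors, the robust quasi-likelihood F test, 2-sided, and Benjamini-Hochberg adjustment over 9202 genes at a threshold of 0.05. CPM are counts scaled to the TMM-adjusted library size, and the SE of a log2 fold change was derived from the F statistic. The fit was tested on simulated data. Ratios used exact permutation tests (scipy 1.17.1). Transcripts were matched by identifier without version to GENCODE 44 (17687 of 19330, 91.5%). ATG16L1 and BNIP3L had no match and were located by symbol, without CDS length.

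The members and lists were chosen with earlier results of these data known. By rule, values are given for each member past the threshold, and for others where the groups did not overlap, an alternative other than leaving out a library called them, or a partner or paralog had passed. Of the wider list, the 3 largest rises and 3 largest falls are named. Alternatives were DESeq2 1.42.0, limma-voom (limma 3.58.1), RLE and upper-quartile factors, total counts only, no filter, a mean of at least 50 counts, a replicate block, removal of CDS length and GC trends (loess, span 0.5), and each library left out.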

Additional observations from a re-analysis of the deposited data

How the results depend on the processing

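With DESeq2, 1329 genes were called (588 higher, 741 lower) against 2473 by edgeR, with 5 of the 40 autophagy genes and 7 of the wider pathway list against 10 and 14. Without each library in turn the counts were 1859 to 2322 genes, 8 to 11 members and 10 to 16 of the wider list. The median log2 fold change of the members, 0.19, was 0.15 after removal of trends on GC and CDS length, 0.27 with a mean of at least 50 counts (22 members), 0.25 with total counts only and 0.15 to 0.23 without each library, lowest without sgCtrl replicate 1. Scaling by total counts only shifted the median gene by 0.055 and called 1560 genes higher and 976 lower, against 1191 and 1282 with TMM factors, and 14 members higher. Removal of the trends called 1085 higher and 1603 lower, and 11 members. Fitting the replicate number as a block gave 2390 genes, 10 members and a median of 0.20. Deviations of same-numbered libraries from their group means correlated at -0.061, 0.02 and 0.016 over 9202 genes, so the numbers were not taken as a pairing.

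Of 554 values of single members under the alternatives, 518 kept direction and side of the threshold, 15 lost the call, 11 gained it and 10 changed sign, all in genes not past the threshold. With the trends removed, ATG101 was at -0.05 and MAP1LC3B at -0.01. Without each library in turn, the values ran from -0.08 (without sgN6AMT1 replicate 1; -0.03 without sgCtrl replicate 2) to 0.10 for RB1CC1, from -0.19 (without sgN6AMT1 replicate 3) to 0.23 for ATG101, from -0.22 to 0.03 (without sgCtrl replicate 3) for ATG2B, from -0.41 to 0.07 (without sgN6AMT1 replicate 3) for ATG10, from -0.27 to 0.07 (without sgN6AMT1 replicate 2; 0.05 without sgCtrl replicate 2) for ATG4A and from -0.03 (without sgN6AMT1 replicate 1) to 0.13 for MAP1LC3B. The cause was not tested. Depth limits the genes under about 10 CPM most, where SEs reached 0.35.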
